A study of Mus musculus with 2 samples.

Results

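The expression of 10 genes of fibroblast growth factor (FGF) signalling was followed in single cells of the embryonic mouse retina: Fgf3, Fgf9, Fgf15 and Fgf13 of the FGF family, the receptors Fgfr1, Fgfr2 and Fgfr3, and the inhibitors Spry1, Spry2 and Spred1. The genes were chosen by symbol, with earlier results of these data known, and all 10 were found among the 28692 genes listed in both libraries. Retinas of GFP-positive E14.5 embryos of the strain Tg(Lhx4::EGFP)KN199Gsat/Mmucd, a line kept as heterozygotes in which GFP is driven from a bacterial artificial chromosome carrying Lhx4, came from 2 litters and were pooled into 1 suspension. The suspension was sorted by flow cytometry into GFP+ cells, which the labels call cone photoreceptors, and GFP- cells, so that both sorts carried the transgene, and each was made into 1 droplet library with a 3′ kit. Each captured transcript has a unique molecular identifier (UMI), and levels are given as UMIs per 1000000 UMIs of the cells named (CPM) with 95% exact Poisson intervals. Reads lie at the 3′ end, so that CPM of different genes can be set side by side without a correction for length, but start sites and splice forms were not measured. As there was 1 library per sort, there were no replicates and no test was made. The intervals cover counting error only. They treat UMIs as independent and make no allowance for UMIs that lie together in a few cells, so they can be too narrow.

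Most FGF ligands are secreted proteins that are held on cell surfaces by heparan sulfate and bind receptor tyrosine kinases. The receptors pass the signal through the adaptor FRS2 and the RAS-RAF-MEK-ERK kinases to ETS transcription factors, and the same signal turns on its own inhibitors, the Sprouty and Spred proteins and the phosphatase DUSP6. In the developing eye, FGF signals are known for their part in setting apart neural retina from pigment epithelium and in starting the wave of neurogenesis. FGF15 is the mouse counterpart of human FGF19. FGF13 belongs to a subfamily that stays inside the cell and binds sodium channels rather than FGF receptors.

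Cells were grouped by counting UMIs of marker genes, none of which is among the 10. After the limits on genes per cell, 3689 GFP+ cells (median 3894 UMIs) and 3389 GFP- cells (median 8848 UMIs) were kept. Before those limits, 20 cell barcodes occurred in both libraries. The GFP+ library was 96.5% cone-like cells (3561 cells, at least 2 of Thrb, Rxrg, Gngt2 and Gnb3). The GFP- library held 1648 cells like multipotent retinal progenitor cells (RPCs), 705 neurogenic-RPC-like cells, 493 cells like retinal ganglion cells (RGCs), 233 cells like amacrine or horizontal cells (AC/HC) and 69 cone-like cells. A group of 59 GFP+ cells was photoreceptor-precursor-like, with Otx2, Crx or Prdm1 but without the cone rule met. That group and the GFP- cone-like cells were led by Fabp7, and none of their own markers was among their 10 leading genes. Each group was ranked against all the others together, which here include the GFP+ cone-like cells with the same markers. The ranking thus says little on their identity. Gngt2 stood at 588 CPM in GFP- cone-like and 0.342 CPM in neurogenic-RPC-like cells of that library. A further 130 GFP- cells met the rules of more than 1 neuron class, 126 of them those of RGCs and AC/HCs, and are called mixed. Markers of retinal pigment epithelium, lens, red blood cells, optic stalk or astrocytes, and mesenchyme stood at or under 11.5 CPM in both libraries. Microglia markers stood at 26.6 and 7.38 CPM, with C1qb and Csf1r at 0 in the GFP+ library. Markers of endothelium stood at 9.48 CPM in the GFP+ and 64.0 CPM in the GFP- library and were highest in the AC/HC-like cells (353 CPM, 585 UMIs), among whose leading genes was Cldn5. Their part in the levels below was not tested.

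Fgf15 was the most abundant of the 10 genes and lay almost wholly in progenitors. In the GFP- library it reached 1341 CPM against 24.3 CPM in the GFP+ library, a 55.1-fold difference (GFP+ over GFP- ratio 0.018, 95% interval 0.016 to 0.020). By cell group its level was 2225 CPM in multipotent-RPC-like cells, 594 CPM in neurogenic-RPC-like cells, 355 CPM in GFP- cone-like cells, 331 CPM in RGC-like cells, 257 CPM in AC/HC-like cells and 7.30 CPM (interval 5.98 to 8.81) in GFP+ cone-like cells. Among these groups the intervals of multipotent-RPC-like and neurogenic-RPC-like cells overlapped no other. That of GFP- cone-like cells overlapped that of RGC-like cells.

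The GFP+ value came largely from a few progenitors. Of its 377 Fgf15 UMIs, 184 were in the 13 GFP+ cells that were multipotent-RPC-like, where the gene stood at 1536 CPM, and 108 were in the 3561 cone-like cells. All 31 Fgf15 UMIs of the photoreceptor-precursor-like group were in 1 cell, so that its 126 CPM describes that cell and not the group.

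To compare cells of unequal depth, each cell was thinned to 3200 UMIs. Fgf15 was then found in 95.8% of multipotent-RPC-like cells, with a median of 6 UMIs per cell and quartiles of 3 and 10. The share was 49.4% in neurogenic-RPC-like, 22.4% in RGC-like, 26.7% in AC/HC-like and 0.961% in GFP+ cone-like cells. Before thinning these shares were 98.5%, 66.1%, 44.8%, 41.6% and 1.07%. Within the RGC-like group the UMIs were uneven, since 77.6% of thinned cells had none while 9.55% had 5 or more.

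**Figure D1:**
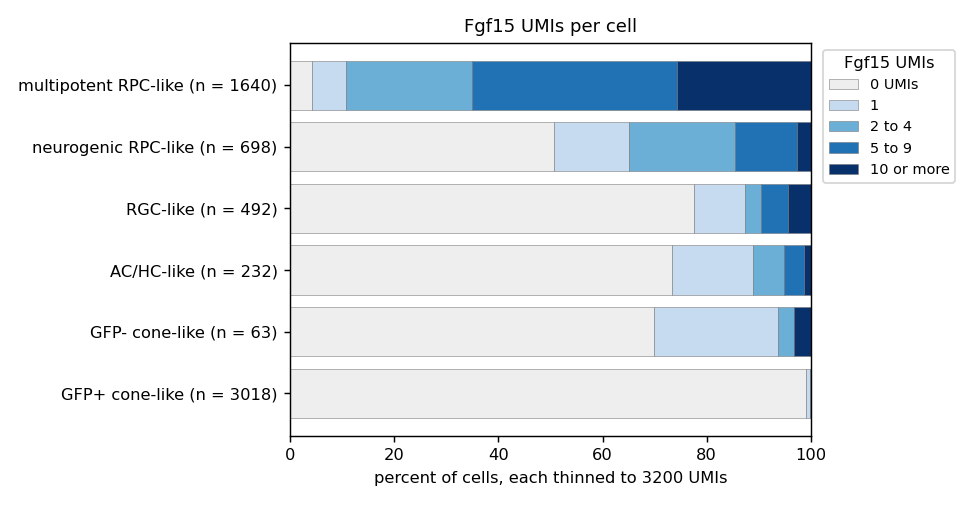
Percent of cells (x axis) by number of Fgf15 UMIs (shades) in 5 GFP- groups and the GFP+ cone-like group, after each cell was thinned to 3200 UMIs; n is the number of cells deep enough. Of multipotent-RPC-like cells 65.1% had 5 or more UMIs, against 14.6% of neurogenic-RPC-like cells, and the bar of the GFP+ cone-like cells is almost wholly at 0.

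Some cells of the later groups also met the multipotent rule (at least 3 of 5 progenitor markers, among them Sfrp2, Hes1, Nr2e1 and Ccnd1). They were 86 of 493 RGC-like, 296 of 705 neurogenic-RPC-like, 9 of 233 AC/HC-like, 3 of 69 GFP- cone-like, 5 of 130 mixed and 8 of 3561 GFP+ cone-like cells. They held 1490 of the 1702 Fgf15 UMIs of RGC-like cells and 2674 of the 3477 of neurogenic-RPC-like cells, but 10 of the 426 of AC/HC-like cells. Without them, a step added after seeing the data, Fgf15 stood at 49.97 CPM in RGC-like cells, 69.6 CPM in GFP- cone-like cells and 2.51 CPM in GFP+ cone-like cells. The numbers of members then at least 2-fold below multipotent-RPC-like cells were 10 in RGC-like (21% of all genes), 8 in AC/HC-like (21.4%), 8 in GFP- cone-like (25.2%), 8 in mixed (24%), 8 in neurogenic-RPC-like (14.3%) and 7 in GFP+ cone-like cells (16%). The limit of 10 UMIs was on both groups together, so Fgfr2 and Fgfr3 passed through their 44 and 35 UMIs in multipotent-RPC-like cells. Fgfr2 had 2 UMIs in RGC-like, 1 in AC/HC-like and 0 in GFP- cone-like and in mixed cells. Fgfr3 had 0 in RGC-like, AC/HC-like and mixed cells. Spry2 had 0 in GFP- cone-like cells, and Spry1 was barely past 2-fold in RGC-like cells (ratio 0.4995). The Fgf15 level in GFP+ cone-like cells, 37 UMIs in 3553 cells, was 886-fold below that of multipotent-RPC-like cells. In the mixed GFP- cells Fgf15 stood at 59.6 CPM, and at 40.4 CPM without the 5 cells that met the rule, where 9.60% of thinned cells held 1 UMI and none held more. Of the RGC-like cells that did not meet the rule 11.6% held Fgf15 at equal depth.

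Without the cells that met the multipotent rule, AC/HC-like cells had more Fgf15 than RGC-like cells, 263 against 49.97 CPM, beside 252.5 CPM in neurogenic-RPC-like cells. Over all AC/HC-like cells Fgf15 UMIs outnumbered those of Sfrp2, a secreted Wnt modulator of progenitors, by 3.70 (interval 3.01 to 4.59). That figure was 1.85 in GFP- cone-like, 1.74 in neurogenic-RPC-like, 1.44 in multipotent-RPC-like, 1.30 in RGC-like and 1.29 in mixed cells. Per Ccnd1 UMI it was 4.53 in AC/HC-like against 1.58 in GFP- cone-like and 1.03 in RGC-like cells. Per Hes1 UMI AC/HC-like cells did not stand apart, with 5.325 against 5.35 in GFP- cone-like and 4.03 in RGC-like cells. The AC/HC-like level of Fgf15 was 66.7 CPM when 3 AC/HC markers were asked for rather than 2. With 1 more marker asked for, RGC-like cells had 114 CPM. These values keep the cells that met the multipotent rule. With those cells kept, RGC-like cells were also above AC/HC-like cells under the main rule (331 against 257 CPM). When groups were set on thinned cells, again with those cells kept, the levels were 138 CPM in AC/HC-like and 36.3 CPM in RGC-like cells. The level thus depended on the marker rule. The order depended on whether cells meeting the multipotent rule were left out and on the depth at which groups were set.

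Fgf3 and Fgf9, secreted ligands that both have parts in inner ear and eye development, were likewise highest in multipotent-RPC-like cells among the groups plotted, at lower levels than Fgf15. Fgf3 stood at 2.19 CPM in the GFP+ and 77.3 CPM in the GFP- library, a 35.2-fold difference. It was at 133 CPM in multipotent-RPC-like cells and at most 25.6 CPM in the other 6 groups plotted by cell group, while the 95 unassigned GFP- cells had 31.8 CPM. Neurogenic-RPC-like cells had 19.3 CPM (interval 15.9 to 23.2) and, where the multipotent rule was not met, 5.66 CPM. In RGC-like cells the level was 21.2 CPM with and 2.36 CPM without cells meeting that rule. In GFP+ cone-like cells it was 1.08 CPM from 16 UMIs, and 13 of these were in the 8 cells that met the multipotent rule.

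Fgf9 differed less between groups than Fgf3. Its levels were 10.4 CPM in the GFP+ and 103 CPM in the GFP- library. From multipotent-RPC-like cells (152 CPM) it stepped to 67.1 CPM in neurogenic-RPC-like, 49.8 CPM in RGC-like, 32.0 CPM in AC/HC-like and 8.38 CPM in GFP+ cone-like cells. GFP- cone-like cells had 28.1 CPM from 11 UMIs. Without cells meeting the multipotent rule the neurogenic-RPC-like cells had 43.7, the RGC-like cells 34.7 and the AC/HC-like cells 31.0 CPM, and the intervals of all 3 overlapped. At equal depth Fgf9 was found in 37.5% of multipotent-RPC-like cells and 12.3% of RGC-like cells that did not meet that rule, against 5.6% of mixed cells.

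At equal depth the 3 secreted ligands were found together in only a minority of multipotent-RPC-like cells. Of 1640 thinned multipotent-RPC-like cells, 97.3% had at least 1 of Fgf3, Fgf9 and Fgf15, and 13.1% had all 3. The first share is close to that of Fgf15 by itself. Whether the ligands coincided more often than their separate shares would give was not tested. In GFP+ cone-like cells 3.74% had at least 1, and 1 of 3018 cells had all 3.

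Within the multipotent group the ligands differed little by cell cycle. In cells with at least 3 of 8 mitotic transcripts, Fgf15 stood at 2580 CPM against 2019 CPM in the others (ratio 1.28, interval 1.25 to 1.31), Fgf3 at 146 against 126 CPM (1.15, 1.05 to 1.26) and Fgf9 at 136 against 161 CPM (0.847, 0.776 to 0.924). None of the 10 genes differed by 2-fold there, where 4.9% of 12887 genes were at least 2-fold lower and 2.82% at least 2-fold higher. By position, 48 multipotent-RPC-like cells with a UMI of Tbx5, a dorsal transcription factor, were set beside 634 with one of Vax2, a ventral one. Fgf15 was at 2679.7 against 2087 CPM (ratio 1.28, 1.21 to 1.36), Fgf9 at 117 against 161 CPM (0.726, 0.541 to 0.955) and Fgf13 at 32.5 against 59.0 CPM (0.551, 0.305 to 0.922). Fgf3 stood at 126 against 123 CPM, with an interval of the ratio from 0.771 to 1.34. By 2-fold, 1 of 10 members was lower with Tbx5, Fgfr3 with 0 against 13 UMIs, and none was higher (11.9% and 5.55% of all genes).

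Fgf3 and Fgf15 are neighbours in the genome. In GRCm38 (GENCODE) Fgf3 lies on chromosome 7 from 144838083 to 144844436 and Fgf15 from 144896531 to 144900953, both on the plus strand and 52.1 kb apart, with Fgf4 between them and Ccnd1 29.0 kb beyond Fgf15. Fgf4, a ligand of the early embryo, had 0 UMIs in the GFP+ and 1 UMI in the GFP- library. Ccnd1, the cyclin of the G1 phase and one of the multipotent markers, stood at 2152 CPM in multipotent-RPC-like and 1592 CPM in neurogenic-RPC-like cells. In the latter there were 0.373 Fgf15 UMIs per Ccnd1 UMI against 1.03 in multipotent-RPC-like cells.

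Fgf13, the intracellular member, had a different order from the secreted ligands. It was at 3.48 CPM in the GFP+ and 43.0 CPM in the GFP- library (ratio 0.081, 0.060 to 0.106). Multipotent-RPC-like cells had 54.0 CPM, AC/HC-like cells 36.2 CPM, RGC-like cells 29.6 CPM, neurogenic-RPC-like cells 29.0 CPM and GFP+ cone-like cells 2.97 CPM, and the intervals of the middle 3 overlapped. GFP- cone-like cells had 10.2 CPM from 4 UMIs. Mixed cells had 66.2 CPM (50.5 to 85.2), the highest value of the GFP- groups though with an interval that overlapped that of multipotent-RPC-like cells, and 20% of them held an Fgf13 UMI at equal depth against 15.7% of multipotent-RPC-like cells. With 1 more marker asked for, AC/HC-like cells reached 57.8 CPM against 54.9 CPM in multipotent-RPC-like cells. Fgf13 was thus found in progenitor-like cells and in cells with RGC or AC/HC markers alike, and least in GFP+ cone-like cells.

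**Figure D2:**
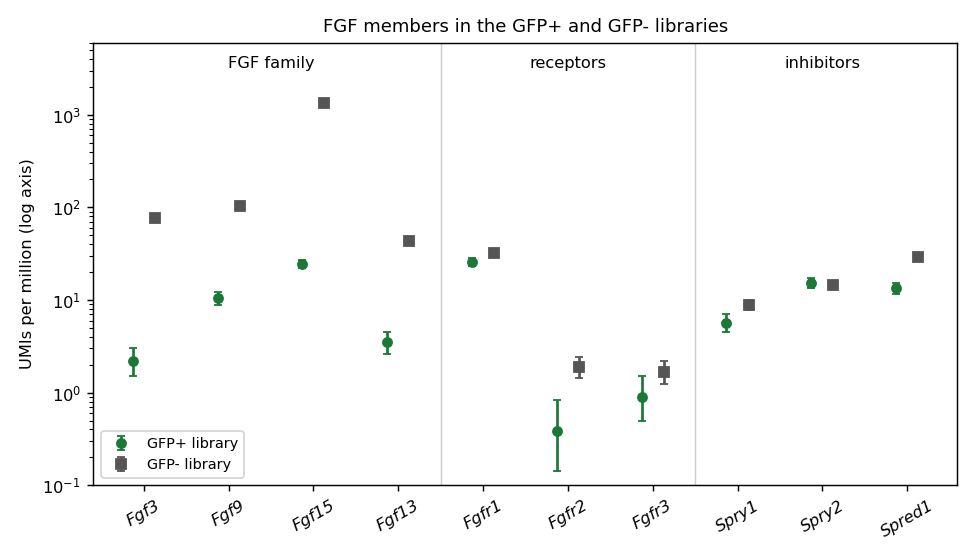
Levels of the 10 genes in CPM (log axis) in all kept cells of the GFP+ library (circles) and GFP- library (squares), with 95% exact Poisson intervals. The FGF family genes are widely apart, while Fgfr1 (25.5 and 31.8) and Spry2 (15.2 and 14.6) are close.

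Fgfr1 was the receptor found most, and it differed by less than 2-fold between the libraries. It stood at 25.5 CPM (23.1 to 28.2) in the GFP+ and 31.8 CPM (29.8 to 33.9) in the GFP- library, a ratio of 0.802 (0.712 to 0.903). That ratio became 0.640 with TMM factors, so that it depended on the scaling. Its log2 value by CPM was -0.32, where the median over all genes was 0.30. Its order was 43.7 CPM in multipotent-RPC-like, 26.0 CPM in neurogenic-RPC-like, 25.9 CPM in GFP+ cone-like, 17.7 CPM in RGC-like and 9.06 CPM in AC/HC-like cells. The neurogenic-RPC-like and GFP+ cone-like values had overlapping intervals. GFP+ cone-like cells exceeded AC/HC-like cells 2.86-fold (1.71 to 5.15) and RGC-like cells 1.46-fold (1.16 to 1.86). With median-of-ratios size factors the values were 21.3 in cone-like, 19.4 in RGC-like and 9.27 in AC/HC-like cells. At equal depth 12.3% of multipotent-RPC-like, 7.75% of GFP+ cone-like and 1.29% of AC/HC-like cells held an Fgfr1 UMI.

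Fgfr2 and Fgfr3 were near the limit of detection. Fgfr2 had 6 UMIs in the GFP+ and 57 in the GFP- library (0.387 and 1.89 CPM), and Fgfr3 had 14 and 50 (0.903 and 1.66 CPM). Of these, 44 Fgfr2 and 35 Fgfr3 UMIs were in multipotent-RPC-like cells, at 2.86 and 2.28 CPM. The nominally highest groups, photoreceptor-precursor-like for Fgfr2 and GFP- cone-like for Fgfr3, rested on 1 UMI each. At 3200 UMIs per cell any of the 3 receptors was found in 13.8% of multipotent-RPC-like cells and 7.92% of GFP+ cone-like cells.

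Among GFP+ cone-like cells Fgfr1 varied with other transcripts. It was at 16.5 CPM in the 530 cells with at least 3 UMIs of Fabp7, a fatty acid binding protein, against 28.0 CPM in the others (ratio 0.590, 0.422 to 0.807). It was at 43.6 CPM in the 232 cells with at least 3 of 8 targets of the stress factor ATF4, against 24.5 CPM (1.78, 1.27 to 2.43). Spry1 in these 232 cells had 2 UMIs (1.94 against 5.74 CPM, ratio 0.338, 0.040 to 1.26) and Spry2 had 9 (8.72 against 16.0 CPM, 0.546, 0.246 to 1.06). Both intervals include 1. In cells with Pcp4, a calmodulin regulator, or Opn1sw, the short-wavelength opsin, the Fgfr1 ratio to the other cone-like cells was 1.28 (0.939 to 1.72) and 0.937 (0.519 to 1.57). Of 9 members with 10 or more UMIs, 3 were at least 2-fold lower and none higher with Fabp7 (7.99% and 2.51% of all genes), 3 lower and 1 higher with ATF4 targets (8.49% and 6.59%), 2 lower and none higher with Pcp4 (5.85% and 2.52%), and 3 lower and none higher with Opn1sw (12.2% and 4.54%), each of these on 3 UMIs or fewer in the smaller subset.

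The 3 inhibitors parted ways in the neurogenic group. Sprouty proteins act between receptor and RAS, and Spred1 blocks RAF activation by bringing neurofibromin to RAS. Spry1 was the only one of the 10 genes that was higher in neurogenic-RPC-like than in multipotent-RPC-like cells, at 17.8 CPM (14.52 to 21.5) against 7.55 CPM (6.24 to 9.06), a ratio of 2.35 (1.79 to 3.09). Spry2 went the other way, 8.54 against 19.3 CPM (0.443, 0.322 to 0.600), and Spred1 was at 25.8 against 39.6 CPM (0.652, 0.542 to 0.780). At equal depth Spry1 was found in 5.73% of neurogenic-RPC-like and 2.26% of multipotent-RPC-like cells, and Spry2 in 2.58% and 6.04%.

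The windows upstream of both Sprouty genes are shown because their transcripts went in opposite directions in the same library. They are the 250 bases before the RefSeq start (GRCm38.p6), 5′ to 3′ on the gene's strand, with E-boxes (CANNTG, the site class of basic helix-loop-helix factors) in capitals. Spry1 lies at chr3:37639697-37639946 on the plus strand and Spry2 at chr14:105896820-105897069 on the minus strand.
Spry1: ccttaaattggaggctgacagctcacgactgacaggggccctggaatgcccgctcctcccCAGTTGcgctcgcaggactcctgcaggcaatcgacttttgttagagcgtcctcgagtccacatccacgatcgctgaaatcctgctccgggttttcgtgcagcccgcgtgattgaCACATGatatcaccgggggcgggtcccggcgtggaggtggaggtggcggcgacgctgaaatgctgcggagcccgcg
Spry2: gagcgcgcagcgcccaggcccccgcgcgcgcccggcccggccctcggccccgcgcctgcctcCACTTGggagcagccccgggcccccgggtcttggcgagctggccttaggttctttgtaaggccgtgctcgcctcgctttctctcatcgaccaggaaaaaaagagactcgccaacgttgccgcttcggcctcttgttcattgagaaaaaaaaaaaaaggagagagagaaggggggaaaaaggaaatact
Spry1 held 2 E-boxes and Spry2 held 1, and 66.2% of 32851 promoter windows of this length held at least 1, so that neither stood apart. The homeodomain core TAATTA and the ETS core GGAAGT, each searched on both strands, were in neither window and in 4.84% and 19.7% of all windows. Both windows had 62.4% G or C against a median of 52.4%. Windows were at hand for 8 of the 10 genes.

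The change in the neurogenic group was graded for the ligands and not for Spry1. In the 296 neurogenic-RPC-like cells that also met the multipotent rule, Fgf15 stood at 1000.3 CPM, Fgf9 at 95.02, Fgf3 at 35.5, Spry2 at 15.0 and Spry1 at 19.1 CPM. In the 409 that did not, the values were 252.5, 43.7, 5.66, 3.14 and 16.7 CPM. Spry1 differed between these subsets by a ratio of 0.874 (0.583 to 1.31), while the ratio was 0.252 for Fgf15, 0.210 for Spry2 and 0.510 for Spred1. Of 9 members with 10 or more UMIs here, 6 were at least 2-fold lower where the rule was not met. None was higher. Fgfr3 was among the 6 on 2 against 8 UMIs. Over all 11503 genes the shares were 6.64% and 6.22%. The multipotent markers used to split the cells were among the genes of that background.

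**Figure D3:**
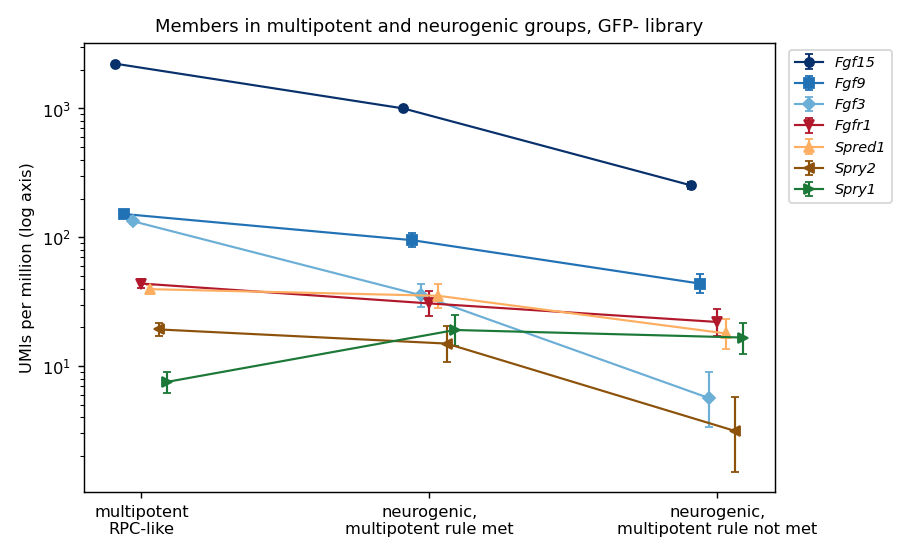
Levels of 7 members in CPM (log axis, 95% exact Poisson intervals) in multipotent-RPC-like cells and in neurogenic-RPC-like cells that met or did not meet the multipotent rule, GFP- library. The lines of 6 members go down to the right, while Spry1 goes from 7.55 to 19.1 and 16.7.

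Cells with a UMI of Olig2, a transcription factor of progenitors that give rise to photoreceptors and horizontal cells, split the neurogenic group again. In 177 such neurogenic-RPC-like cells Fgf15 was at 187 CPM against 737 CPM in the 528 others (0.253, 0.223 to 0.286), and Fgf3 was at 9.85 against 22.6 CPM (0.435, 0.235 to 0.754). Spry1 was at 21.0 against 16.6 CPM (1.26, 0.806 to 1.94) and Fgfr1 at 31.5 against 24.0 CPM (1.31, 0.912 to 1.86), both with intervals that include 1. The intervals also include 1 for Spry2 (0.542, 0.220 to 1.17) and Spred1 (0.765, 0.501 to 1.14). Here 3 of 9 members were at least 2-fold lower and none higher, with 10.6% and 4.05% of all genes. In neurogenic-RPC-like cells with mitotic transcripts Spry2 was 2.09-fold higher (1.14 to 3.92, 12.1 against 5.78 CPM), whereas Spry1 had a ratio of 1.23 (0.822 to 1.85). Spry2 was the 1 member of 9 past 2-fold higher there (5.09% of all genes), with none lower (9.44%).

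Spry1 was lower again in the neuron-like groups. It was at 3.89 CPM in RGC-like, 4.83 CPM in AC/HC-like and 5.47 CPM in GFP+ cone-like cells, so that the neurogenic level was 4.57 times that of RGC-like cells. Spry2 was at 15.5 CPM (13.5 to 17.6) in GFP+ cone-like cells, below the 19.3 CPM of multipotent-RPC-like cells (ratio 0.803, 0.673 to 0.957). It was at 11.5 CPM in RGC-like and 8.45 CPM in AC/HC-like cells, and at 15.2 against 14.6 CPM between the libraries. That library ratio, 1.04 (0.887 to 1.23), became 0.832 with TMM factors, which move the median log2 ratio of all genes by -0.33. With median-of-ratios factors Spry2 was at 12.7 in GFP+ cone-like, 12.6 in RGC-like and 21.6 in multipotent-RPC-like cells. Spred1 was at 13.2 CPM in GFP+ cone-like, 14.4 CPM in RGC-like and 13.3 CPM in AC/HC-like cells, values whose intervals overlapped, all below the 39.6 CPM of multipotent-RPC-like cells.

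RGC-like cells without an Atoh7 UMI first seemed richer in ligands than those with one, the transcript of a factor needed for RGC formation. Fgf3 was at 43.8 against 1.46 CPM and Fgf15 at 590 against 105 CPM. With Atoh7, 2 of 8 members were at least 2-fold lower and none higher (9.37% and 3.66% of all genes). When cells meeting the multipotent rule were left out, Fgf15 was at 56.4 against 45.2 CPM, a ratio of 0.801 (0.606 to 1.06) for cells with Atoh7 over those without. By 2-fold 1 of 8 members was then lower and 1 higher (8.61% and 6.37%). The lower one was Fgf3, with 3 against 7 UMIs. The higher one was Fgfr1, which stood at 17.3 CPM with and 6.64 CPM without Atoh7 (2.60, 1.34 to 5.42), and this difference was seen only after that step, since all RGC-like cells gave 0.934 (0.606 to 1.44).

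Counted over the 10 genes, 6 were at least 2-fold lower in the GFP+ library and none was higher, where 16.8% of 15236 genes were lower and 23% higher. The members' median log2 ratio was -1.66 against 0.30 over all genes. Between GFP+ cone-like and multipotent-RPC-like cells 7 were lower and none higher, with 15.9% and 29.5% of all genes. For neurogenic-RPC-like over multipotent-RPC-like cells 5 were lower (8.67% of genes) and 1 higher (6.2%). The limit of 10 UMIs was on both sides together, so Fgfr2 is in each of these counts through the side where it was higher. It had 6 against 57 UMIs between the libraries. In GFP+ cone-like cells it had 4 and in neurogenic-RPC-like cells 6, each against 44 in multipotent-RPC-like cells. For RGC-like over multipotent-RPC-like cells 7 were lower (17.7%) and none higher (14.9%), and for AC/HC-like cells 8 were lower (21%) and none higher (16.7%). Fgfr2 and Fgfr3 are in the RGC-like and AC/HC-like counts on few UMIs, 5 and 3 in RGC-like and 1 and 0 in AC/HC-like cells. In AC/HC-like cells the intervals of their ratios reached 1.24 and 1.03. Between RGC-like and neurogenic-RPC-like cells 2 were lower (12.5%) and none higher (13.1%). The lower ones were Spry1 and Fgfr3, the second with 3 against 10 UMIs. Between GFP+ cone-like and RGC-like cells 4 were lower (12.4%) and none higher (26.9%), the lower ones being Fgf3, Fgf9, Fgf13 and Fgf15. The same 4 genes were lower in GFP+ cone-like than in AC/HC-like cells (10.3%), while 2 receptors, Fgfr1 and Fgfr3, were higher there (27.5%), the second with 11 against 0 UMIs. Cells of the same cone rule differed between libraries. GFP- against GFP+ cone-like cells had Fgf3 at 25.6 against 1.08 and Fgf9 at 28.1 against 8.38 CPM. Fgf13 was at 10.2 against 2.97 and Fgf15 at 355 against 7.30 CPM. Fgfr1 and Spry2 went the other way (10.2 against 25.9 and 0 against 15.5 CPM). The GFP- cells had 10, 11 and 4 UMIs of Fgf3, Fgf9 and Fgf13, or 2, 6 and 2 without those meeting the multipotent rule. Cell class and library cannot be told apart here. Photoreceptor-precursor-like over GFP+ cone-like cells gave 2 lower and 1 higher of 9 (25.8% and 7.22%), the higher one being Fgf15 in its 1 cell. The lower ones, Fgf3 and Fgfr3, had 0 UMIs in the 59 precursor-like cells, and the intervals of their ratios reached 15.6 and 23.9. Among the 7 groups plotted, 7 of the 10 members had their highest level in multipotent-RPC-like cells, as did 14.7% of 15117 genes. With the mixed cells counted as a group, Fgf13 would not be among them. The share over all genes includes genes with few UMIs, whose highest level can rest on 1 UMI in a small group, as for Fgfr2 and Fgfr3. These comparisons share cells with one another. The members were chosen with earlier results of these data known, so the counts beside the shares over all genes are description only.

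**Figure D4:**
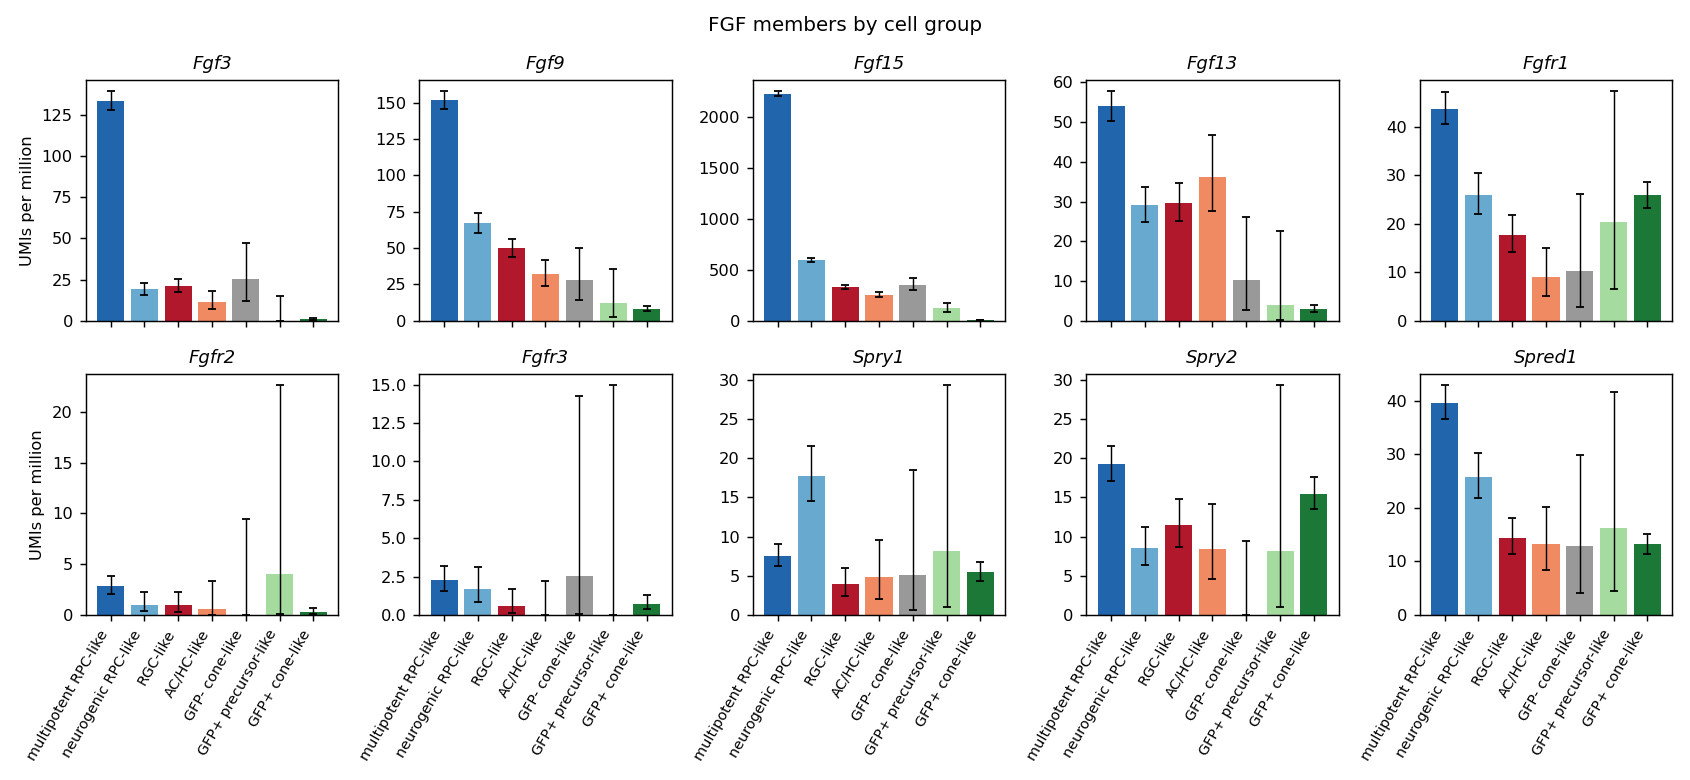
Levels of the 10 genes in CPM (each y axis starts at 0 and has its own scale) in 7 cell groups of 50 or more cells, with 95% exact Poisson intervals as bars. The multipotent-RPC-like bar is the tallest in 7 panels, the neurogenic-RPC-like bar is the tallest for Spry1 (17.8), and the wide bars for Fgfr2 and Fgfr3 rest on few UMIs.

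The other genes of the pathway were read from 7 lists of 89 genes, of which 74 had 10 or more UMIs. Of these, 21 were at least 2-fold lower and 12 at least 2-fold higher in the GFP+ library, against the 16.8% and 23% of all genes. The ETS factors Etv1 and Etv5, read-outs of ERK, went with the ligands. Etv5 was at 53.9 CPM in multipotent-RPC-like, 22.9 CPM in neurogenic-RPC-like, 9.53 CPM in RGC-like, 1.81 CPM in AC/HC-like and 1.08 CPM in GFP+ cone-like cells, and was 24.1-fold lower in the GFP+ library. Etv1 was at 23.9 CPM in multipotent-RPC-like cells and at most 5.11 CPM in the other groups plotted. Dusp6 was at 54.2 CPM in multipotent-RPC-like, 38.8 CPM in neurogenic-RPC-like and 22.4 CPM in GFP+ cone-like cells. In their lists 3 of 8 ERK-induced factors were lower and 1 higher, and 3 of 10 other inhibitors were lower and 1 higher. Ier2 and Mycn, the most abundant factors of the first list, stood at 144 against 154 CPM and 133 against 85.0 CPM in the GFP+ and GFP- libraries. Nf1 and Rasa1, which switch RAS off, stood at 27.5 against 19.7 CPM and 40.8 against 33.6 CPM.

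Of 18 adaptor and RAS-ERK genes none was at least 2-fold lower in the GFP+ library and 4 were higher, where 16.8% and 23% of all genes were, with a median log2 ratio of 0.25 against 0.30 over all genes. Frs3, an adaptor related to Frs2, was at 31.8 CPM in the GFP+ and 5.28 CPM in the GFP- library (6.02-fold, 5.02 to 7.24), and its level was 32.6 CPM in GFP+ cone-like, 15.3 CPM in GFP- cone-like and 2.73 CPM in multipotent-RPC-like cells. Of the RAF kinases, Araf was at 118 against 52.1 CPM (2.27-fold) and Braf at 29.3 against 14.45 CPM (2.03-fold). Map2k2, the highest of the list in both libraries, had a ratio of 1.16, and Nras one of 0.849. The sodium channel gene Scn8a was at 39.0 against 9.57 CPM (4.08-fold) and Scn3a at 23.9 against 11.8 CPM (2.02-fold). By group Scn8a was highest in GFP+ cone-like cells (39.9 CPM), while Scn3a was at 45.7 CPM in RGC-like, 30.8 CPM in AC/HC-like and 24.7 CPM in GFP+ cone-like cells. Under TMM factors, which move the median log2 ratio of all genes by -0.33, Araf, Braf and Scn3a come under 2-fold. Over all lists 26 genes were then lower and 8 higher.

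Fgf18, a secreted ligand, was found in cells with AC/HC markers. It was at 56.2 CPM in AC/HC-like and 43.0 CPM (30.6 to 58.8) in mixed cells and at most 1.56 CPM in the other groups plotted, and had 3 UMIs in the GFP+ against 145 in the GFP- library. Endothelium markers, at 353 CPM in AC/HC-like cells, stood at 179 CPM in mixed cells, and their part in these levels was not tested. Flrt3, a membrane protein that binds FGF receptors, was at 36.2 CPM in AC/HC-like, 33.1 CPM in mixed and 15.6 CPM in RGC-like cells. Sulf2, which trims heparan sulfate, was at 108 CPM in AC/HC-like, 62.9 CPM in mixed and 44.2 CPM in neurogenic-RPC-like cells. Fgfbp3, a carrier that frees FGFs from heparan sulfate, was highest in multipotent-RPC-like cells (45.5 CPM). Of 11 receptor and co-receptor genes 5 were lower and none higher in the GFP+ library (16.8% and 23% of all genes), while the proteoglycan Sdc2 stood at 27.4 against 17.4 CPM. Of 12 heparan sulfate genes 3 were lower and 1 higher, and Ext2 and Hs2st1 stood at 40.6 against 26.0 and 36.7 against 39.2 CPM. The other intracellular FGFs differed from Fgf13: Fgf11 was at 5.03 against 1.36 CPM in the GFP+ and GFP- libraries, and among the groups plotted Fgf12 was highest in RGC-like cells (16.3 CPM) and Fgf14 in neurogenic-RPC-like cells (7.005 CPM). The list of other FGF genes had 4 lower and 3 higher of 9, and that of sodium channels 3 lower and 2 higher of 6. For these lists and the heparan sulfate genes the shares over all genes were likewise 16.8% and 23%, and each list is short.

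**Figure D5:**
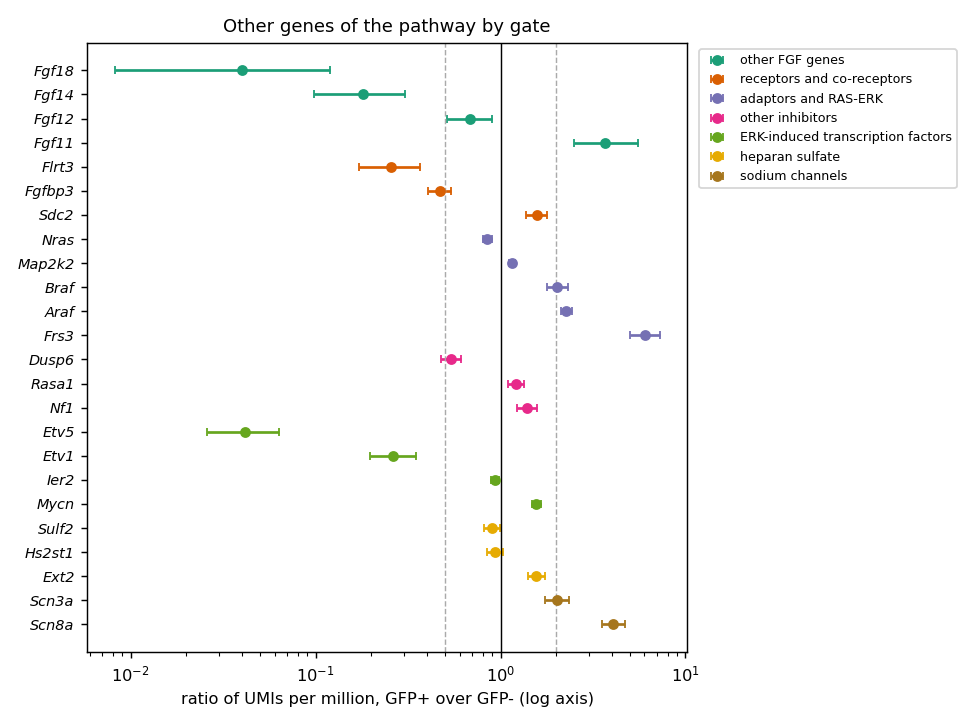
Ratio of CPM in the GFP+ over the GFP- library (log axis) for 24 named pathway genes, coloured by list, with 95% exact intervals; dashed lines mark 2-fold. Fgf18 and Etv5 lie farthest left, and Frs3 (6.02) and Scn8a (4.08) farthest right.

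The genes most like each member over 8 cell groups (multipotent-RPC-like cells split by mitosis) were read from Pearson's r of log2(CPM + 10) over 4646 genes, as a description of groups that share 2 libraries. Fgf3 was closest to Nr2e1 and Col9a1 (r = 0.98 each) and Fgf15 to Dapl1, Eef1a1 and Hes1 (0.98 each), of which Nr2e1 and Hes1 were markers of the multipotent rule. Fgf9 was closest to the ribosomal protein genes Rpl4 (0.99) and Rps21 (0.98), and Fgf13 to Mif (0.98). Spry1 was closest to Eif5b (0.93), and Spred1 to Pole3 and Rpl36al (0.98 each). Fgfr1 and Spry2 had Gm10073 (0.97) and Dcps (0.89). Among the members Fgf3 and Fgf9 had r = 0.95, and Spry1 and Spry2 had 0.06.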

How the data were processed

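Per the labels, the deposited values were UMI counts per gene and cell that the authors made with Cell Ranger 2.1.1 and the mm10 (GRCm38) reference. They are whole numbers, not normalized, for barcodes called as cells. Kept were cells in which the number of genes lay above 250 and below 3500 and mitochondrial UMIs made up a fraction below 0.25 (the study's methods print this limit as a percent, which was read here as a fraction), which removed 39 GFP+ and 1056 GFP- cells. The deposited depth was 16010591 UMIs (GFP+) and 46778924 UMIs (GFP-). With 1 library per sort, intervals reflect counting error only, and the spread between litters or sorts was not measured.

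Groups were set in a fixed order from marker UMIs: cone-like (2 of 4 markers), RGC-like (3 of 8), AC/HC-like (2 of 5), neurogenic-RPC-like (2 of 5), photoreceptor-precursor-like (2 of 3) and multipotent-RPC-like (3 of 5). Cells that met the rules of more than 1 of the first 3 were called mixed. UMIs were summed over cells. Ratios have exact conditional binomial intervals and shares exact Clopper-Pearson intervals, both of 95%. A gene was counted as lower or higher from 2-fold on, among genes with at least 10 UMIs in both compared groups together. Named besides the members were pathway genes at 20 CPM or more in a group and 2-fold different between libraries, the 2 highest of each list in either library, and the 3 genes most like each member of at least 100 UMIs, from genes at 50 CPM or more in a group. Some genes that these rules name are not reported here. Scrublet in scanpy 1.11.5 called 3 GFP+ and 55 GFP- cells doublets, of which 2 were among kept cells and none among the mixed cells, a share of 0.0805% in the GFP+ library, at which the caller cannot be taken to have worked. Doublets were left in. Calculations used Python 3.11.15, numpy 2.4.6, scipy 1.17.1 and edgeR 4.0.16 (TMM factors), and intervals and thinning were tested on simulated data. Members and lists were chosen with earlier results of these data known. The splits by Olig2, mitotic transcripts in neurogenic cells, Atoh7 and Ptf1a, and the step leaving out cells that met the multipotent rule, were chosen after seeing the data. The Ptf1a split of AC/HC-like cells is not described, since it left 10 cells without Ptf1a beside 223 with it.

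Alternatives were no upper limit on genes, TMM and median-of-ratios factors, means of per-cell values, thinned cells, doublets left out, other folds, 1 more marker per group, groups set on thinned cells, cone-like GFP+ over not cone-like GFP- cells, and 50 UMIs per pathway gene.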

Additional observations from a re-analysis of the deposited data

How the results depend on the processing

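The number of members at least 2-fold lower in the GFP+ library was 6, and 6 or 7 under the alternatives, and 8 and 5 when a fold of 1.5 or 3 was asked for, with none higher in any. Shares over all genes are given for the main setting only. Among the 7 groups plotted, 7 or 8 members were highest in multipotent-RPC-like cells and Spry1 in neurogenic-RPC-like cells in each, though the 95 unassigned GFP- cells had 18.2 CPM of Spry1. No ratio past 2-fold changed direction. Of the alternative values, 101 stayed within the limits set for a like result and 39, all of single members, moved further. Of the pathway genes 21 were lower and 12 higher, with 15 and 9 from 50 UMIs on and 26 and 8 with TMM factors. TMM factors move the median log2 ratio of all genes by -0.33, so that the last change is not particular to the pathway. The shares over all genes under these 2 alternatives are not given. The GFP+ over GFP- ratio of Fgf15 was 0.0181, but 0.0389 with no upper limit on genes, 0.00995 for means of per-cell values, 0.0109 after thinning and 0.00539 for cone-like over not cone-like cells. That of Fgf3 was 0.0284, and 0.0590, 0.0147, 0.0192 and 0.0139 in the same order. That of Fgfr3 was 0.206 after thinning. The neurogenic over multipotent ratio of Fgf15 (0.267) was 0.149 with 1 more marker and 0.113 without cells meeting the multipotent rule, and that of Spry2 (0.443) was 0.163 in the last case. Leaving out doublets changed no count, since 2 kept cells were called. No paired analysis was possible because each sort is 1 library and the result comes from no test. The shallower GFP+ library limits Fgfr2 and Fgfr3, and 3 counts there are 0.194 CPM.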
